A study of Rattus norvegicus with 48 samples.

Results

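A set of 10 genes of transforming growth factor beta (TGF-beta) signalling was followed in the eyes of ovariectomised and sham-operated rats, chosen by symbol from the deposited count tables. These 10 members, of 32883 genes in each table, are the ligands Tgfb1, Tgfb2 and Tgfb3, the receptors Tgfbr1, Tgfbr2 and Tgfbr3, the latent binding protein Ltbp1, the signal transducer Smad3, the inhibitor Smad7 and the induced matrix protein Tgfbi. All 10 were present in both tables, and all 10 passed the filter on low counts in both tissues. RNA was sequenced from 24 female Long-Evans rats, an outbred pigmented strain, with a posterior eye library and a retina library from each animal. The 4 groups of 6 animals were aged OVX, aged sham, young OVX and young sham. OVX is ovariectomy, the surgical removal of the ovaries, and sham surgery leaves them in place. Aged animals, which the submitters call middle-aged, were 9 to 10 months old, and young animals were 3 to 4 months old. No genetic change is stated for the animals, and the interval between surgery and collection is not given in the sources used here. Ovariectomy also removes ovarian hormones other than oestrogen, so the groups differ in ovarian function as a whole.

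TGF-beta ligands are secreted in a latent form, held by their own propeptide and tied to the matrix by latent binding proteins such as LTBP1, and integrins or thrombospondin-1 release them. The active ligand binds the receptor TGFBR2, often presented by the co-receptor TGFBR3, and TGFBR2 then recruits and activates TGFBR1, which phosphorylates SMAD2 and SMAD3. SMAD7 is induced by the pathway and shuts off the receptors, and TGFBI is a secreted matrix protein named for its induction by TGF-beta. In the eye, TGF-beta2 is the main isoform of the aqueous and vitreous, and TGF-beta signalling is known for its part in scleral and choroidal matrix and in retinal scarring.

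The promoters of 3 members are shown because the results below turn on these genes: Tgfb1 had the largest difference between groups in the retina, Tgfb2 was the member that was lower in posterior eye than in retina, and Tgfbi had the largest difference between the tissues. All 10 members matched RefSeq promoters on the rat build GRCr8, which run from 250 bases before to 50 bases after the gene start. Per the submitters' processing notes the counts rest on the earlier build Rnor_6.0, so the coordinates below belong to GRCr8 only. They are chr1:90324062-90324361 on the plus strand for Tgfb1, chr13:100792636-100792935 on the minus strand for Tgfb2 and chr17:7990064-7990363 on the minus strand for Tgfbi. Each is printed 5′ to 3′ on the gene's own strand, and capitals mark a GC box.
Tgfb1: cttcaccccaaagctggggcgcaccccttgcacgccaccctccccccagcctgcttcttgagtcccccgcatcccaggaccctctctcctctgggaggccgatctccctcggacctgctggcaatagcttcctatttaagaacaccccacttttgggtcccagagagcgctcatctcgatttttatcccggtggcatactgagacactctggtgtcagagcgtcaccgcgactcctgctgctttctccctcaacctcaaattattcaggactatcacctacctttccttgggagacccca
Tgfb2: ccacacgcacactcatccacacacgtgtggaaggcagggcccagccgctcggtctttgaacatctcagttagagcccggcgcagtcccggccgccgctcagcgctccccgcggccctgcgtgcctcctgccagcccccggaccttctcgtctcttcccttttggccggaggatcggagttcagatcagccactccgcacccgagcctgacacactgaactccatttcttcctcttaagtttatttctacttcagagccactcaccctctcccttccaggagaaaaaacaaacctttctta
Tgfbi: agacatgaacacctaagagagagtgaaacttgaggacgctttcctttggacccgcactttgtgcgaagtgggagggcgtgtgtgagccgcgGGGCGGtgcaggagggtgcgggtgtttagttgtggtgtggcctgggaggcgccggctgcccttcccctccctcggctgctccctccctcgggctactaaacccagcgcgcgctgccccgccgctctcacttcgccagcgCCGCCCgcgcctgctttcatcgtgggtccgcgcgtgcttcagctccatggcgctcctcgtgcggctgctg
The Tgfbi promoter held 2 GC boxes, and those of Tgfb1 and Tgfb2 held 0. A GC box was searched as GGGCGG on both strands and was found in 6 of 10 member promoters, against 33.1% of 33469 rat promoters of the same length. The GC content of the printed promoters was 57.7% for Tgfb1, 59% for Tgfb2 and 66.7% for Tgfbi, against a median of 51.7% over all promoters. The SMAD box CAGAC was found in 1 of 10 member promoters, that of Ltbp1, against 50.1% of all promoters. The AP-1 site TGACTCA was in 0 of 10, against 4.63%, and the palindromic oestrogen response element, on both strands like the others, in 0 of 10, against 0.0269%. None of these motifs contains another, and a match or its lack describes the letters in this window alone.

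Posterior eye libraries held 11470945 to 22971367 counts, and retina libraries 12916146 to 30737547. Levels are given in CPM, the read count scaled to the normalised library total. Marker genes of the labelled tissues were present: the mean level of rod genes was 11.24 to 11.54 log2 CPM across retina libraries, and that of pigment epithelium genes was 6.33 to 8.35 across posterior eye libraries. The posterior eye libraries were mixed. Their rod level ran from 1.74 to 9.92, all carried skeletal muscle genes (10.15 to 12.34), and 5 of 24 had a level of sebaceous gland genes above 4 log2 CPM (the range was 0.61 to 8.81). In the retina, the lens level ran from 5.16 to 9.89, and the libraries of young sham animal 2 and young OVX animal 8 stood above 3 log2 CPM for muscle genes. Genes varied between animals by a common coefficient of 33.4% in posterior eye libraries and 12% in retina libraries.

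The posterior eye held more RNA of 9 of the 10 members than the retina of the same rats, and less of Tgfb2. The fit covered all 48 libraries with edgeR's quasi-likelihood test, and the threshold for a call was an adjusted p of 0.05. All 10 members were called, but so were 15949 of 17153 genes tested (93%), so a call by itself says little about the members here. How many of all genes have separate ranges in the 2 tissues was not counted. Separate ranges given below therefore describe each member and are not read as a trait of the set. Levels in this comparison were scaled over both tissues together, so they differ slightly from those given later within a tissue. The median log2 fold change of posterior eye over retina was 1.91 over the 10 members and 0.05 over all genes tested. In bulk tissue, fewer cells of a type and less RNA per cell cannot be told apart.

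**Figure D1:**
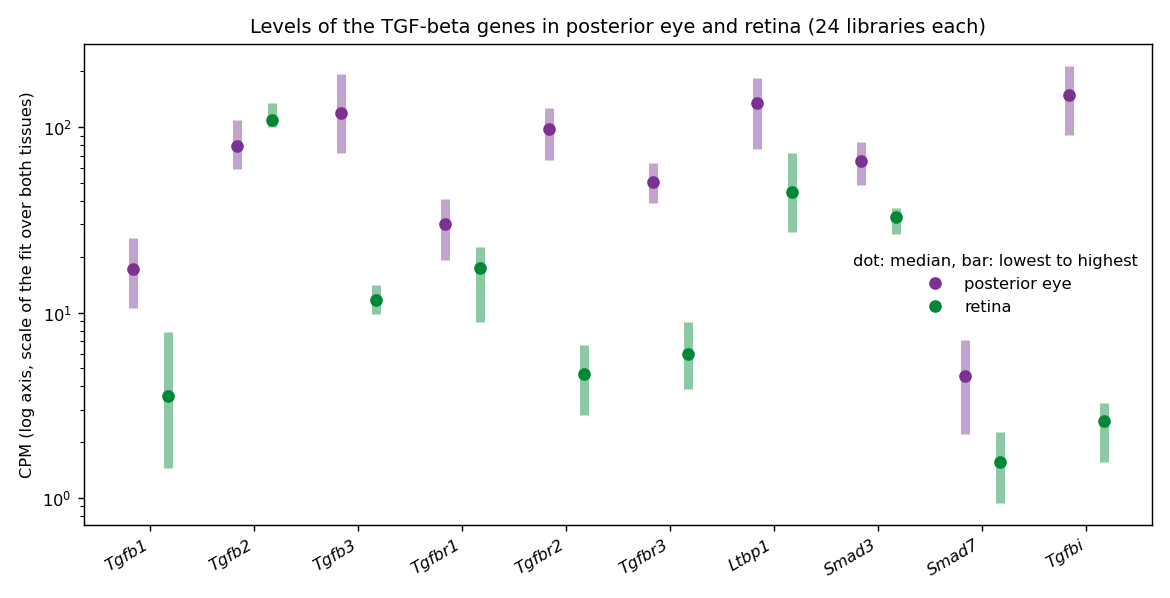
Levels of the 10 members in posterior eye (purple, left of each pair) and retina (green), in CPM on a log axis, with dots for the median and bars from the lowest to the highest of 24 libraries. The Tgfbi, Tgfbr2, Tgfb3 and Tgfbr3 bars are far apart between tissues, while Tgfb2 is the member whose retina median lies above its posterior eye median.

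The ligands parted between the tissues. Tgfb1, the isoform best known from platelets and immune cells, had a lowest, median and highest value of 10.6, 17.3 and 25.4 CPM in posterior eye and 1.45, 3.57 and 7.89 CPM in retina. Tgfb3, the isoform known for its role in palate fusion, had 72.2, 119.6 and 193.1 CPM in posterior eye and 9.89, 11.7 and 14.1 CPM in retina. In neither gene did the ranges meet. Tgfb1 was higher in posterior eye by a log2 fold change of 2.24 ± 0.11 (SE, adjusted p = 1.18e-23) and Tgfb3 by 3.37 ± 0.08 (adjusted p = 1.18e-34), and both were higher in 24 of 24 animals. Tgfb2 ran the other way, with 59.6, 79.0 and 109.9 CPM in posterior eye and 100.5, 110 and 135.2 CPM in retina. The Tgfb2 ranges overlapped, and the posterior eye value was the higher in 1 of 24 animals (log2 fold change -0.53 ± 0.05, adjusted p = 1.03e-12).

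The receptors were higher in posterior eye, by very unequal amounts. Tgfbr2, which binds the ligand, had 66.2, 98.3 and 127.5 CPM in posterior eye and 2.80, 4.66 and 6.65 CPM in retina, at 4.44 ± 0.08 on the log2 scale (adjusted p = 3.14e-38). Tgfbr3, the co-receptor also called betaglycan, had 38.9, 50.9 and 64.0 CPM in posterior eye and 3.86, 5.95 and 8.85 CPM in retina, at 3.12 ± 0.07 on that scale (adjusted p = 1.27e-34). Neither receptor's ranges overlapped. Tgfbr1, the kinase that passes the signal to the SMADs, had 19.2, 30.0 and 40.8 CPM in posterior eye and 8.92, 17.3 and 22.6 CPM in retina. Its ranges overlapped, it was higher in posterior eye in 23 of 24 animals, and its log2 fold change of 0.85 ± 0.08 was the smallest of the 9 (adjusted p = 4.53e-14). The 95% intervals, 4.274 to 4.603 for Tgfbr2 and 0.698 to 1.003 for Tgfbr1, lay far apart.

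Ltbp1, which stores latent ligand in the matrix, had 76.7, 134.9 and 184.3 CPM in posterior eye and 27.1, 44.5 and 72.4 CPM in retina (log2 fold change 1.57 ± 0.09, adjusted p = 5.18e-21). Smad3 had 48.8, 65.6 and 82.9 CPM in posterior eye and 26.6, 32.6 and 36.9 CPM in retina (1.04 ± 0.05, adjusted p = 9.65e-25). Both sets of ranges were separate. Smad7 had 2.21, 4.54 and 7.07 CPM in posterior eye and 0.94, 1.57 and 2.27 CPM in retina, with ranges that overlapped at their ends (1.497 ± 0.10, adjusted p = 8.01e-18). Tgfbi, a protein of cornea, sclera and other connective tissue, had 90.6, 149.9 and 214.2 CPM in posterior eye and 1.56, 2.60 and 3.25 CPM in retina. That was 57.4-fold higher in posterior eye, or 5.84 ± 0.09 on the log2 scale (adjusted p = 5.31e-40), in 24 of 24 animals. Beside these differences, the mean level of 7 fibroblast marker genes was 7.33 to 8.52 log2 CPM across posterior eye libraries and, for the 5 of them tested there, 1.08 to 3.52 across retina libraries. The part of cell type makeup in the members' differences was not tested.

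The pathway beyond the members was compared in the same way, over 49 further genes listed with earlier results of these data known. Of all 17153 genes tested, 8197 were called higher in posterior eye and 7752 lower, beside which the counts below stand. Of 12 genes for storage and release of latent TGF-beta, 11 were higher in posterior eye and 0 lower, with Thbs1 (thrombospondin-1) at a log2 fold change of 5.69 ± 0.13 and Ltbp4 at 3.73 ± 0.07. Of 16 genes known to respond to TGF-beta, 15 were higher and 0 lower, with Fn1 (fibronectin) at 4.76 ± 0.08 and Col1a1 (type I collagen) at 10.5 ± 0.27. Among 10 further receptors, activins and SMADs tested, 3 were higher and 6 lower. Eng (endoglin) was at 4.15 ± 0.08 and Acvrl1 at 2.88 ± 0.08, both receptors of endothelium, while Inhba, an activin subunit, was at -1.81 ± 0.13 and Smad4, the shared partner of the SMADs, at -0.42 ± 0.02. Of 10 negative regulators, 6 were higher and 2 lower.

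In the posterior eye, ovariectomy was compared with sham surgery at each age to see how these transcripts differ after the ovaries are lost. None of the 10 members was called in either comparison, where 0% of all genes were called in aged and 0.0061% in young animals. In aged animals 0 members had an unadjusted p under 0.05, against 2.57% of all genes, and in young animals 0, against 6.24%. DESeq2 and limma-voom also called 0 members in both. The 95% intervals of the 10 log2 fold changes ran from -0.37 to 0.69 in aged and from -0.30 to 0.62 in young animals.

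**Figure D2:**
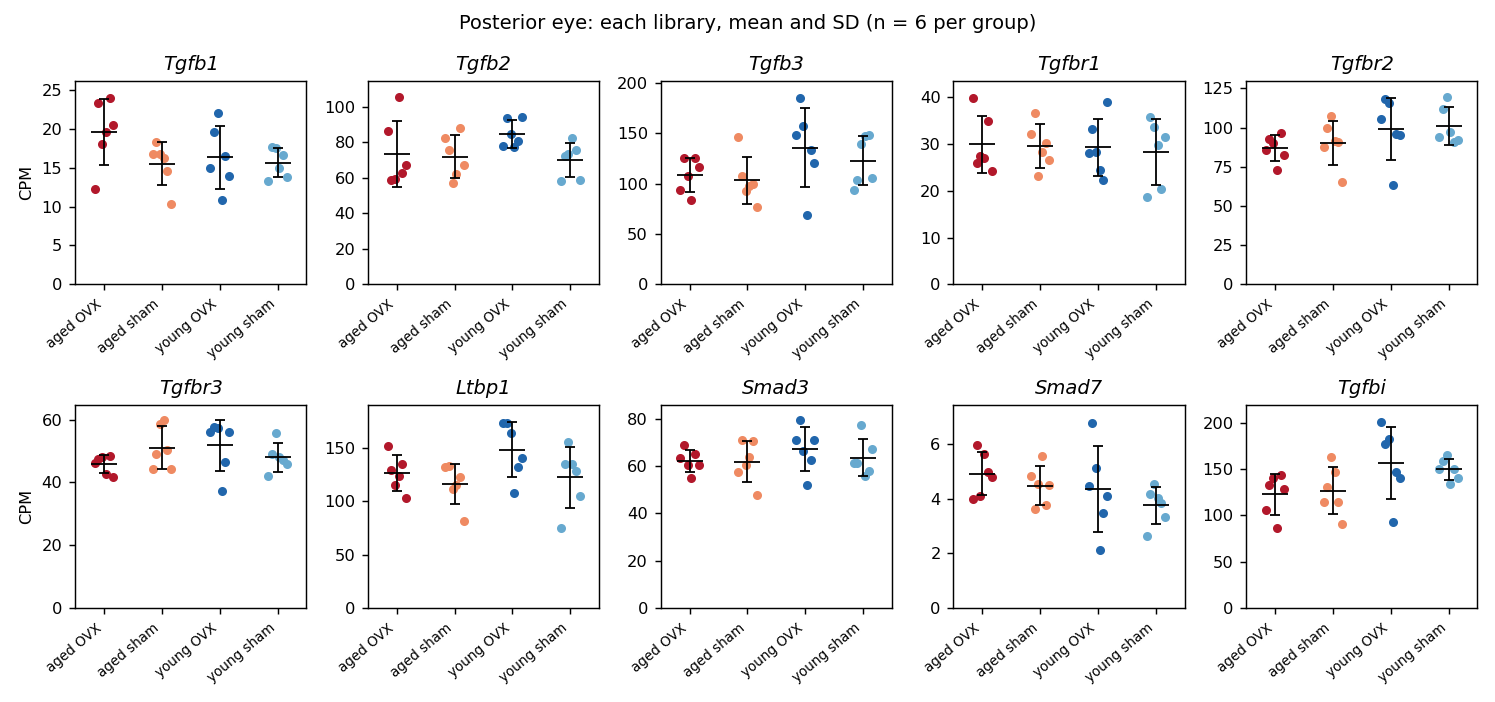
Each member in the posterior eye, in CPM by group, with a point for each library, a long bar for the mean and whiskers for the SD (n = 6). The groups overlap in every panel, and the aged OVX libraries of Tgfb1 and the young OVX libraries of Tgfb2 sit nearest to standing apart from sham.

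Among the ligands, Tgfb1 was the one set furthest apart in aged animals. Its lowest, median and highest values were 12.3, 20.0 and 23.9 CPM in aged OVX and 10.3, 16.5 and 18.3 CPM in aged sham posterior eyes. The groups overlapped, and 5 of 6 OVX libraries exceeded the sham median. The log2 fold change was 0.34 ± 0.17 (95% interval -0.01 to 0.69, adjusted p = 0.9999). In young animals Tgfb1 had 10.8, 15.7 and 22.1 CPM in OVX and 13.2, 15.8 and 17.6 CPM in sham, with the OVX values spread to both sides of sham (log2 0.06 ± 0.17). Tgfb2 showed its larger difference at the other age. It had 77.1, 82.5 and 94.2 CPM in young OVX and 58.1, 72.6 and 82.5 CPM in young sham posterior eyes, so that 6 of 6 OVX libraries exceeded the sham median (log2 0.27 ± 0.14, adjusted p = 0.831). In aged animals it had 58.7, 64.99 and 105.4 CPM in OVX and 57.0, 71.4 and 87.8 CPM in sham (log2 0.03 ± 0.14). Tgfb3 averaged 109 ± 17.1 CPM in aged OVX, 103.5 ± 23.4 in aged sham, 135.8 ± 39.2 in young OVX and 123 ± 24.5 in young sham (SD, n = 6 each), with log2 fold changes for OVX of 0.08 ± 0.19 in aged and 0.14 ± 0.19 in young animals.

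The receptors Tgfbr2 and Tgfbr1 differed by less than the spread between libraries. Tgfbr2 averaged 86.8 ± 8.36 CPM in aged OVX, 90.3 ± 14.2 in aged sham, 99.0 ± 19.8 in young OVX and 101 ± 11.9 in young sham. Tgfbr1 averaged 29.9 ± 6.10 CPM in aged OVX, 29.5 ± 4.69 in aged sham, 29.2 ± 6.03 in young OVX and 28.3 ± 7.07 in young sham. For both genes the OVX log2 fold changes lay between -0.06 and 0.05. Without the 5 libraries high in sebaceous genes, Tgfbr1 was at 0.32 for OVX in young animals (adjusted p = 0.668). Those left out were young sham animals 2, 4 and 6, young OVX animal 10 and aged sham animal 16. The young sham group was thus cut the most. Tgfbr3 averaged 45.8 ± 2.89 CPM in aged OVX and 51.1 ± 6.83 in aged sham, with 6 of 6 OVX libraries under the sham median (log2 -0.16 ± 0.10, adjusted p = 0.9999). In young animals it averaged 51.8 ± 8.16 CPM in OVX and 48.0 ± 4.57 in sham (log2 0.11 ± 0.10), and the difference between the ages in the OVX effect was -0.27 ± 0.14 (adjusted p = 0.9998).

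Ltbp1 had 108.2, 152.4 and 173.1 CPM in young OVX and 74.8, 131.9 and 155.3 CPM in young sham posterior eyes, overlapping groups with a log2 fold change of 0.28 ± 0.15 (adjusted p = 0.864). In aged animals it averaged 126.3 ± 16.6 CPM in OVX and 116 ± 18.9 in sham (log2 0.12 ± 0.15). Smad3 averaged 62.1 ± 4.81 CPM in aged OVX, 61.8 ± 8.71 in aged sham, 67.03 ± 9.23 in young OVX and 63.5 ± 7.89 in young sham. Its 95% intervals for OVX ran from -0.21 to 0.22 in aged and from -0.13 to 0.29 in young animals. Smad7 averaged 4.91 ± 0.79 CPM in aged OVX, 4.47 ± 0.71 in aged sham, 4.34 ± 1.57 in young OVX and 3.76 ± 0.68 in young sham, from 30 to 142 reads per library. Tgfbi averaged 122.9 ± 22.0 CPM in aged OVX and 126.6 ± 25.6 in aged sham (log2 -0.04 ± 0.16), and 156.7 ± 38.8 in young OVX and 149.8 ± 11.47 in young sham (0.07 ± 0.16). The lowest Tgfbi value among the young animals, 92.5 CPM, came from OVX animal 10, whose library was among those high in sebaceous genes. That library was also the lowest of the young OVX group for Tgfb1, Tgfb2, Tgfb3, Tgfbr2, Tgfbr3, Ltbp1, Smad3 and Smad7. Of the others high in sebaceous genes, young sham animals 2, 4 and 6 had 158.7, 134.2 and 140.1 CPM of Tgfbi. Aged sham animal 16 had 146.6 CPM. Across the 24 libraries, each relative to its group mean, Tgfbi and the sebaceous level had r = -0.0575 (permutation p = 0.76, adjusted p = 0.85). The cause of the low values in the library of animal 10 was not tested. Without the 5 libraries high in sebaceous genes, 0 members were called for OVX at either age.

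Age was compared within each surgery. None of the members was called in the posterior eye, with 0% of all genes called in OVX and 0% in sham animals, and DESeq2 and limma-voom called 0 members too. In sham animals 0 members had an unadjusted p under 0.05, against 2.93% of all genes. Tgfbi was the member with p under 0.05, in OVX animals, against 10.1% of all genes. It had 86.8, 130.9 and 143.1 CPM in aged OVX and 92.5, 162.2 and 201.2 CPM in young OVX posterior eyes. The groups overlapped, 6 of 6 aged libraries lay below the young median, and the log2 fold change was -0.35 ± 0.16 (95% interval -0.68 to -0.02, adjusted p = 0.457). With the rod level as a covariate it was -0.37 ± 0.12 (adjusted p = 0.176). In sham animals it had 90.7, 122.7 and 162.4 CPM when aged and 134.2, 150.2 and 165.3 CPM when young, at -0.24 ± 0.16 on the log2 scale (adjusted p = 0.9998). The level of 7 of 7 fibroblast markers, none of them at 0 in all libraries, was 7.33 to 8.09 log2 CPM in aged OVX and 7.74 to 8.52 in young OVX libraries, and their summed levels were 5136 to 8452 CPM in aged OVX and 5303 to 10120 CPM in young OVX libraries (difference in mean level -0.50, exact permutation p = 0.0173, adjusted over 48 comparisons p = 0.416), and its part in the Tgfbi values was not tested. Across the 24 posterior eye libraries, each relative to its group mean, Tgfbi and the fibroblast level had r = 0.677 (permutation p = 0.00097, adjusted over 120 relations p = 0.0092).

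The remaining age differences in the posterior eye were smaller or less certain. Tgfb3 was at -0.32 ± 0.19 in OVX and -0.25 ± 0.19 in sham animals on the log2 scale, and Tgfbr2 at -0.19 ± 0.13 in OVX and -0.16 ± 0.13 in sham animals. Tgfb1 was at 0.27 ± 0.17 in OVX animals, in which 5 of 6 aged libraries exceeded the young median, and at -0.02 ± 0.17 in sham animals. Of the 10 members 7 lay below 0 in OVX animals, with a median log2 fold change of -0.18 against -0.02 over all genes tested, and 6 lay below 0 in sham animals, with a median of -0.03 against -0.02. These age comparisons share libraries with the OVX comparisons above and are not independent of them. The interaction of age and OVX called 0 members and 0% of all genes with edgeR, and the mean OVX effect over both ages 0 members and 0%. Unadjusted p under 0.05 was reached by 0 members in each, against 2.97% of all genes for the interaction and 5.72% for the mean effect, and DESeq2 and limma-voom called 0 members.

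In the retina Tgfb2, Smad3 and Tgfb3 varied little, with the highest of 24 libraries 1.35, 1.40 and 1.45 times the lowest, while for Tgfb1 it was 5.49 times. None of the 10 was called for OVX in aged animals, where 0.00646% of all genes were called, in young animals (0.0194%) or over both ages (0.0517%). DESeq2 and limma-voom called 0 members as well. In aged animals 1 member had an unadjusted p under 0.05, against 6.47% of all genes, and in young animals 0, against 11.7%, and over both ages 0, against 10.8%. Tgfb2, the most evenly expressed ligand there, had 112.1, 115.2 and 126.3 CPM in aged OVX and 104.4, 116.6 and 129.4 CPM in aged sham retinas. In young retinas it had 110.1, 120.6 and 139.8 CPM in OVX and 108.2, 114.2 and 141.3 CPM in sham. Its 95% intervals for OVX were -0.13 to 0.13 in aged and -0.08 to 0.18 in young animals on the log2 scale.

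**Figure D3:**
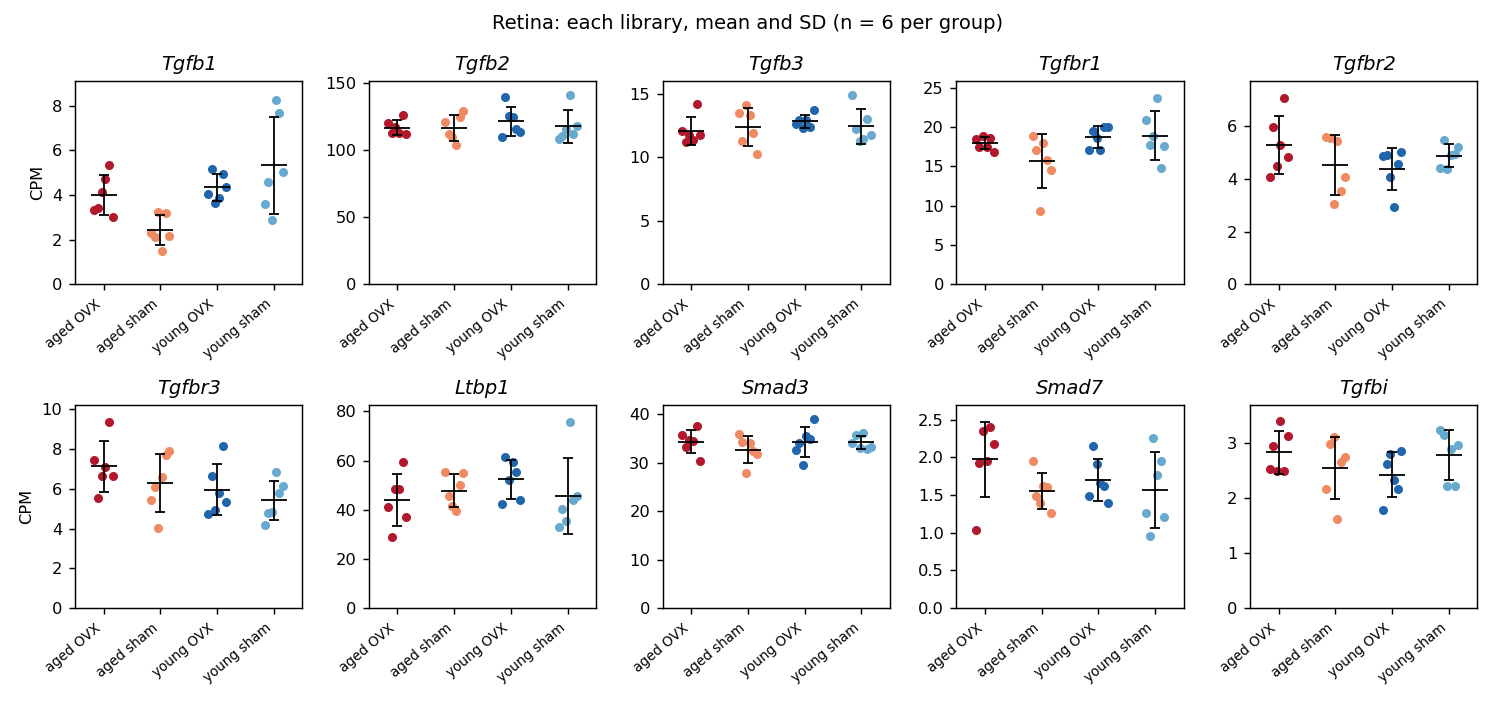
Each member in the retina, in CPM by group, with a point for each library, a long bar for the mean and whiskers for the SD (n = 6). The Tgfb1 panel has its lowest libraries in aged sham and its highest in young sham, while the Tgfb2, Tgfb3 and Smad3 groups lie level.

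Tgfb1 was the member whose retina groups differed most. Its lowest, median and highest values were 3.03, 3.79 and 5.36 CPM in aged OVX, 1.502, 2.24 and 3.23 CPM in aged sham, 3.62, 4.22 and 5.17 CPM in young OVX and 2.87, 4.80 and 8.25 CPM in young sham retinas. In order of the median, young sham was highest, then young OVX, aged OVX and aged sham. The first 3 overlapped widely, and the aged sham libraries reached into the lowest aged OVX and young sham values. The reads behind these levels were few, 26 to 145 per library.

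In aged against young sham retinas the Tgfb1 log2 fold change was -1.13 ± 0.22 (95% interval -1.60 to -0.67), with 6 of 6 aged libraries below the young median. The p was 3.33e-05 and the adjusted p 0.0645, short of the threshold. This comparison called 0 members and 0.0388% of all genes, and 2 members had p under 0.05 (10.7% of all genes did). DESeq2, which called 0.426% of all genes there, called Tgfb1 (adjusted p = 0.00085), and limma-voom did not (adjusted p = 0.12), and over all alternatives its adjusted p ran from 0.00085 to 0.284. Young sham animals 4 and 5 carried the highest values, 8.25 and 7.65 CPM, and young sham animal 3 the lowest, 2.87 CPM. Leaving out 1 library in turn gave log2 fold changes from -1.26 to -0.97, and the gene was called without young sham animal 3 (adjusted p = 0.0188). In OVX animals the same age comparison gave -0.12 ± 0.22 for Tgfb1, and 0 members were called there against 0.0711% of all genes, by any of the 3 tools, with 0 at an unadjusted p under 0.05 against 9.23%.

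For ovariectomy, the Tgfb1 values parted most in aged retinas. All 6 aged OVX libraries exceeded the aged sham median, and the log2 fold change was 0.71 ± 0.23 (95% interval 0.24 to 1.19, adjusted p = 0.658). In young retinas it was -0.30 ± 0.21 (-0.74 to 0.14, adjusted p = 0.628). The difference between the 2 OVX effects was 1.01 ± 0.31, which did not pass (adjusted p = 0.564). The interaction called 0 members with any of the 3 tools, against 0.0452% of all genes with edgeR, and 1 member had an unadjusted p under 0.05, against 6.21%. These comparisons share the aged sham libraries, in which Tgfb1 was lowest, so they are not separate pieces of evidence.

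**Figure D4:**
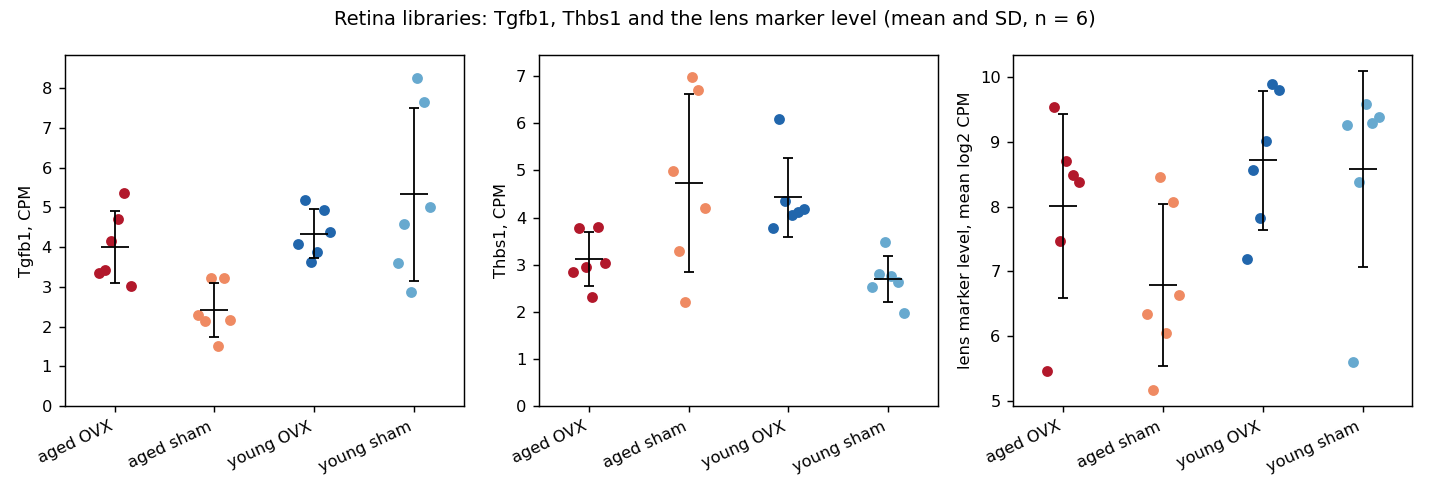
Retina libraries by group, with Tgfb1 in CPM (left), Thbs1 in CPM (middle) and the mean log2 CPM of lens marker genes (right), with points for libraries, a long bar for the mean and whiskers for the SD (n = 6). Tgfb1 is lowest in aged sham, Thbs1 is lowest in young sham, and the lens level is lowest on average in aged sham.

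Several marker levels of the retina libraries also differed between the groups. The lens level was 5.45 to 9.54 log2 CPM in aged OVX, 5.16 to 8.45 in aged sham, 7.20 to 9.89 in young OVX and 5.60 to 9.59 in young sham libraries, over 6 of 6 lens genes, none of them at 0 in all libraries. The summed lens genes came to 2971 to 22300 CPM in aged OVX, 2296 to 16740 in aged sham, 9149 to 34770 in young OVX and 3463 to 35420 in young sham libraries. The lens level was lower in aged than in young sham (difference -1.80, exact permutation p = 0.0455, adjusted p = 0.323). With the lens level as a covariate the Tgfb1 difference between aged and young sham was -0.90 ± 0.23 (adjusted p = 0.188), and that between aged OVX and aged sham was 0.57 ± 0.22 (adjusted p = 0.739). With the lens and pigment epithelium levels together the age difference was -0.90 ± 0.25 and the OVX difference 0.56 ± 0.29. Across the 24 retina libraries, each relative to its group mean, Tgfb1 and the lens level had r = 0.411 (permutation p = 0.081, adjusted over 120 relations p = 0.57) and rho = 0.511 (permutation p = 0.017). Without the 2 libraries farthest in lens level, r was 0.444. The level of Schwann cell and myelin markers, 4 of 5 of them tested and none at 0 in all libraries, was also lowest in aged sham. It was 3.66 to 4.55 log2 CPM in aged OVX, 3.45 to 4.30 in aged sham, 4.02 to 4.59 in young OVX and 3.62 to 4.68 in young sham libraries, and these genes summed to 68.1 to 147.2 CPM in aged OVX, 62.4 to 122.6 in aged sham, 92.1 to 146.5 in young OVX and 73.2 to 163.7 in young sham. The difference in this level was -0.45 for aged against young sham (exact permutation p = 0.0563, adjusted p = 0.323) and 0.38 for OVX against sham in aged animals (exact permutation p = 0.0606, adjusted p = 0.323). Of the 12 marker lists it followed Tgfb1 most closely (r = 0.575, permutation p = 0.015, adjusted p = 0.46, rho = 0.642, permutation p = 0.0035, r without 2 libraries 0.635), and its part in the Tgfb1 values was not tested. Fibroblast, sebaceous and muscle levels were lowest in aged sham too, at means of 1.745, 2.23 and 1.694 log2 CPM. Their r with Tgfb1 was 0.237, 0.505 and -0.0436. For the sebaceous level the permutation p was 0.019 (adjusted p = 0.46), and r without 2 libraries was 0.324. Levels of Müller glia and vessel wall (mural) genes were highest in aged sham, at 8.75 and 3.296. The pigment epithelium level also crossed over, at 3.82 to 4.52 in aged OVX and 4.61 to 5.85 in aged sham, and 4.46 to 5.21 in young OVX and 4.04 to 4.94 in young sham libraries. Between aged OVX and aged sham this level differed by -0.84 (exact permutation p = 0.0022, adjusted p = 0.104). Between young OVX and young sham it differed by 0.63 (exact permutation p = 0.0065, adjusted p = 0.104). For age it differed by -0.95 with OVX (exact permutation p = 0.0043, adjusted p = 0.104) and by 0.525 with sham surgery (exact permutation p = 0.0238, adjusted p = 0.286). Its r with Tgfb1 was -0.158 (permutation p = 0.51, adjusted p = 0.86).

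The groups overlapped for the remaining ligand and the receptors. Tgfb3 averaged 12.1 ± 1.10 CPM in aged OVX, 12.4 ± 1.48 in aged sham, 12.8 ± 0.50 in young OVX and 12.4 ± 1.34 in young sham retinas, with log2 fold changes between -0.09 and 0.05 in the 4 comparisons. Tgfbr1 had 9.38, 16.5 and 18.9 CPM in aged sham and 14.8, 18.3 and 23.7 CPM in young sham retinas, with 5 of 6 aged libraries under the young median. In aged against young sham retinas its log2 fold change of -0.27 ± 0.12 had an adjusted p of 0.397. In aged OVX it had 16.9, 18.0 and 18.9 CPM, inside the aged sham range (log2 0.20 ± 0.12, adjusted p = 0.826). Aged sham animal 15 held the lowest value, and without it the age difference was -0.16 (adjusted p = 0.604) and the aged OVX difference 0.09 (adjusted p = 0.919). Tgfbr2 averaged 5.28 ± 1.09 CPM in aged OVX, 4.54 ± 1.13 in aged sham, 4.39 ± 0.80 in young OVX and 4.88 ± 0.43 in young sham retinas. Tgfbr3 averaged 7.13 ± 1.28 CPM in aged OVX, 6.30 ± 1.44 in aged sham, 5.95 ± 1.28 in young OVX and 5.43 ± 0.99 in young sham retinas. Its log2 fold change for aged against young was 0.26 ± 0.16 with OVX (adjusted p = 0.658) and 0.22 ± 0.16 with sham surgery (adjusted p = 0.65).

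Ltbp1 had 28.9, 44.7 and 59.2 CPM in aged OVX and 39.3, 47.9 and 55.5 CPM in aged sham retinas, and 42.4, 53.6 and 61.4 CPM in young OVX and 33.0, 42.2 and 75.7 CPM in young sham retinas. The aged sham range lay inside the aged OVX range, while 6 of 6 young OVX libraries exceeded the young sham median. The log2 fold changes for OVX were -0.13 ± 0.17 in aged and 0.20 ± 0.17 in young animals, and without young sham animal 4, the highest library, the young value was 0.40 (adjusted p = 0.273). Fitted beside the pigment epithelium level they were -0.34 ± 0.23 in aged and 0.37 ± 0.21 in young animals. Smad3 was level, at 34.4 ± 2.43 CPM in aged OVX, 32.7 ± 2.77 in aged sham, 34.3 ± 3.16 in young OVX and 34.2 ± 1.39 in young sham retinas, with all 4 log2 fold changes between -0.06 and 0.07. Smad7 averaged 1.97 ± 0.50 CPM in aged OVX and 1.56 ± 0.24 in aged sham (log2 0.34 ± 0.21, adjusted p = 0.828), with a 95% interval from -0.09 to 0.76 and 19 to 60 reads per library over the retina. Tgfbi averaged 2.82 ± 0.39 CPM in aged OVX, 2.54 ± 0.56 in aged sham, 2.42 ± 0.41 in young OVX and 2.77 ± 0.45 in young sham, and 6 of 6 young OVX libraries lay under the young sham median (log2 -0.19 ± 0.16, adjusted p = 0.683). For Tgfbi the direction turned beside the pigment epithelium level, to 0.05 for OVX in young animals, and to -0.16 in aged animals, where it was 0.15 ± 0.16 without that covariate. With group means removed, Tgfbi and that level had r = -0.5 over the retina libraries (permutation p = 0.04, adjusted p = 0.51). The rho was -0.252 (permutation p = 0.25), and r was -0.115 without the 2 libraries farthest in that level.

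**Figure D5:**
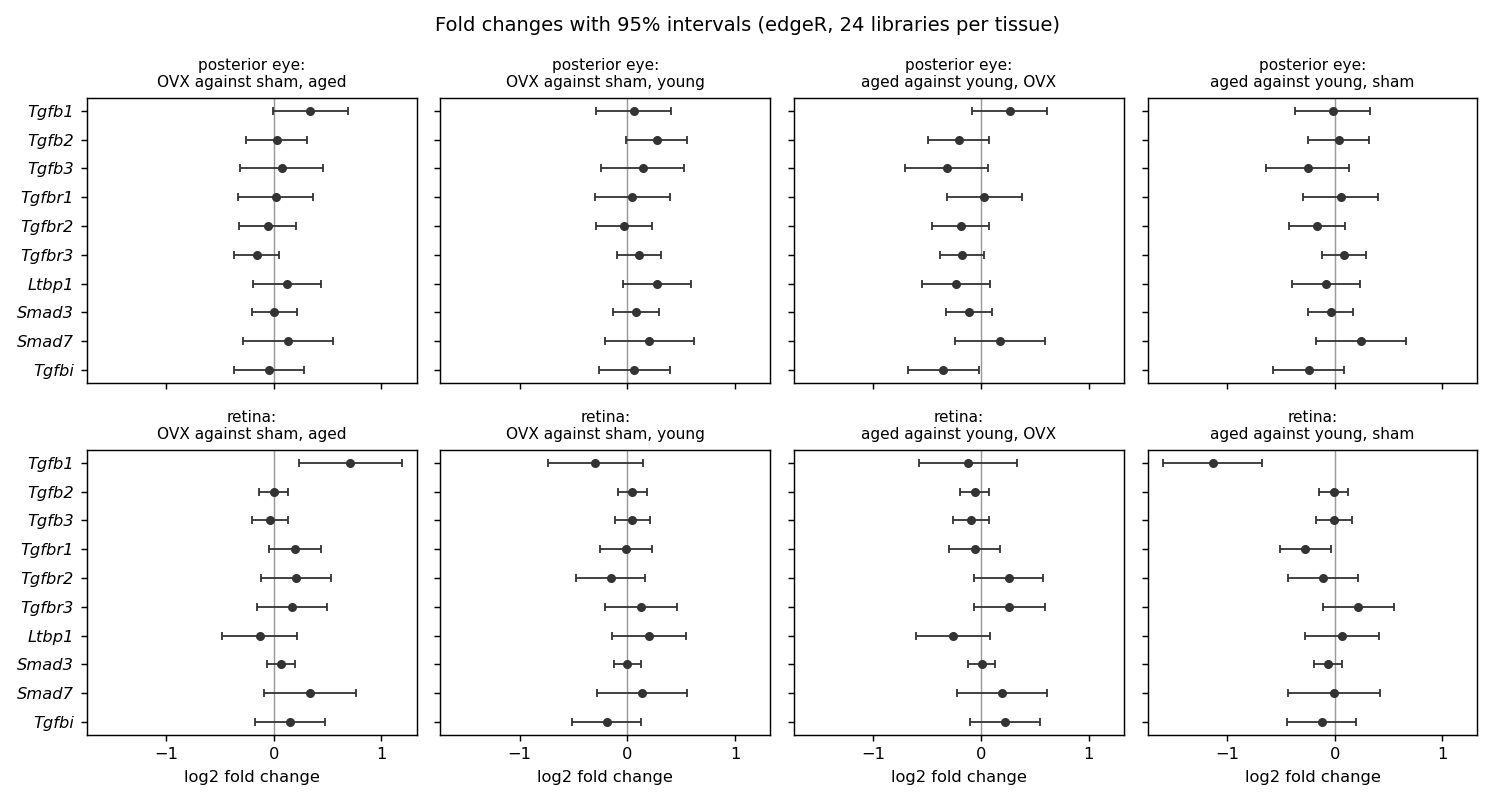
Log2 fold changes of the 10 members with 95% intervals from edgeR, for OVX against sham in aged and young animals and for aged against young animals with OVX and sham surgery, in posterior eye (top) and retina (bottom). Most intervals cross 0, and the retina Tgfb1 intervals for aged OVX (0.24 to 1.19) and for age in sham animals (-1.60 to -0.67) stand clear of it, with those of Tgfbr1 for age in sham retinas (-0.51 to -0.03) and Tgfbi for age in OVX posterior eyes (-0.68 to -0.02) just beside it.

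Whether OVX acted differently in the 2 tissues was tested in the fit over all 48 libraries. None of the members was called, against 0.00583% of all genes, 0 had p under 0.05 against 4.94% of all genes, and DESeq2 and limma-voom called 0. The 10 differences, posterior eye minus retina, ran from -0.16 to 0.18 on the log2 scale, with 95% intervals from -0.46 to 0.52.

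Among the 49 further pathway genes, 48 were tested in posterior eye and 46 in retina libraries, and edgeR called 0 of them in the 12 comparisons within a tissue. For OVX in the posterior eye, an unadjusted p under 0.05 was found for 0 of 48 in aged animals, against 2.57% of all genes, and for 5 in young animals, against 6.24%. In the retina it was found for 2 of 46 in aged animals, against 6.47% of all genes, and for 9 in young animals, against 11.7%. For age it was found for 6 in OVX posterior eyes (10.1% of all genes), 2 in sham posterior eyes (2.93%), 4 in OVX retinas (9.23%) and 8 in sham retinas (10.7%). Limma-voom called 0. DESeq2 called Col1a1 and Tsc22d1 for age in OVX posterior eyes, where it called 0.396% of all genes, and Tsc22d1 for OVX in young posterior eyes, where it called 0.0732%. In the retina it called Thbs1 for the interaction (0.142% of all genes), Bambi for age in OVX animals (0.439%), and Postn and Thbs1 for age in sham animals (0.426%). Thbs1, whose product releases latent TGF-beta, was highest in aged sham and lowest in young sham retinas, the groups between which Tgfb1 differed most in the other direction. It averaged 3.12 ± 0.57 CPM in aged OVX, 4.73 ± 1.89 in aged sham, 4.43 ± 0.84 in young OVX and 2.697 ± 0.49 in young sham retinas. Its log2 fold change for OVX was -0.61 ± 0.21 in aged and 0.72 ± 0.21 in young animals, and the interaction was -1.33 ± 0.30 (edgeR adjusted p = 0.151, DESeq2 adjusted p = 0.0133). Fitted beside the pigment epithelium level, the interaction was -0.92 ± 0.45 (adjusted p = 0.787). Bambi, a decoy receptor that blocks the pathway, was at -0.39 ± 0.10 in aged against young OVX retinas (adjusted p = 0.12).

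The pathway genes with the smallest p of their list are given here as log2 fold changes where that p was under 0.05 before adjustment. For OVX in young posterior eyes they were Tsc22d1, a transcriptional regulator induced by TGF-beta, at 0.30 ± 0.08, the latent binding proteins Ltbp3 at 0.26 ± 0.12 and Ltbp2 at 0.54 ± 0.25, the activin receptor Acvr1b at -0.25 ± 0.11 and the transcription factor gene Junb at -0.43 ± 0.18, with adjusted p from 0.661 to 0.771. For OVX in aged retinas, beside Thbs1, Itgb8, an integrin subunit that helps to release latent ligand, was at -0.70 ± 0.26 (adjusted p = 0.717). For OVX in young retinas, beside Thbs1, Ltbp3 was at 0.16 ± 0.06, Smad4 at -0.10 ± 0.04, the SMAD phosphatase Ppm1a at -0.14 ± 0.05, the SMAD co-repressor Skil at -0.23 ± 0.10, Junb at -0.32 ± 0.13 and the smooth muscle gene Tagln at 0.29 ± 0.13, with adjusted p from 0.308 to 0.377. Ltbp3 thus lay above 0 for OVX in young animals in both tissues, without passing the test in either.

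For age in OVX posterior eyes Tsc22d1 was at -0.27 ± 0.08 (adjusted p = 0.322) and the SMAD co-repressor Tgif1 at 0.36 ± 0.17 (adjusted p = 0.484), and in sham posterior eyes the collagen cross-linking enzyme gene Loxl2 was at -0.53 ± 0.13 (adjusted p = 0.849). For age in OVX retinas Klf10, an early TGF-beta response gene, was at -0.25 ± 0.07 (adjusted p = 0.244), Thbs1 at -0.51 ± 0.21 (adjusted p = 0.457) and Col1a1 at -1.07 ± 0.49 (adjusted p = 0.491). For age in sham retinas Postn, the matrix protein periostin, was at -0.48 ± 0.12, Tgif2 at -0.59 ± 0.19, Bambi at -0.28 ± 0.10, Acvrl1 at 0.39 ± 0.14, Smad4 at -0.09 ± 0.04, Junb at -0.33 ± 0.13 and Thbs1 at 0.81 ± 0.21, with adjusted p from 0.155 to 0.397.

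In the posterior eye Col1a1 had 779.3, 1048 and 1676 CPM in aged sham and 1932, 2393 and 2995 CPM in young sham libraries. These ranges did not overlap, as for 0.128% of all genes tested, and the log2 fold change was -1.02 ± 0.24 (adjusted p = 0.77). In OVX animals it had 764.6, 1048 and 2162 CPM when aged and 1531, 2415 and 3104 CPM when young, and these ranges overlapped (-0.996 ± 0.24, adjusted p = 0.242). The fibroblast level, on average 7.70 log2 CPM in aged OVX, 7.74 in aged sham, 8.20 in young OVX and 7.97 in young sham libraries, differed between aged and young animals by -0.50 with OVX (exact permutation p = 0.0173, adjusted p = 0.416) and by -0.23 with sham surgery (exact permutation p = 0.113, adjusted p = 0.592). Col1a1 is itself 1 of the 7 fibroblast markers, so this level is not separate from the Col1a1 values. The part of the fibroblast level in the Col1a1 values was not tested. Over the 48 pathway genes tested the median log2 fold change for age in the posterior eye was -0.04 in OVX and -0.06 in sham animals, against -0.02 over all genes tested in each.

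How the members varied with each other from library to library was described after each group's mean was removed. This description covers 24 libraries per tissue, which share differences in tissue makeup and depth. Of 45 member pairs in posterior eye libraries, 26 had r above 0.5 and 5 were below 0, with a median of 0.524, and in the retina 5 pairs had r above 0.5, with a median of 0.145. The share of all gene pairs with r above 0.5 was not counted, so these counts are not read as a trait of the members. Tgfbr2 and Tgfbi (r = 0.88) and Tgfbr2 and Tgfbr3 (r = 0.823) were the closest pairs in the posterior eye. The 5 pairs below 0 there all held Tgfb2, from r = -0.422 with Tgfbi and -0.084 with Tgfbr2 to -0.00495 with Smad3. Its other pairs ran from 0.139 with Tgfb3 to 0.397 with Tgfbr1 and 0.443 with Ltbp1. Tgfbr1 was likewise little related to Tgfbi (r = 0.045) and Tgfb1 (r = 0.0543). In the retina the closest pair was Tgfb2 and Ltbp1 (r = 0.799), and Ltbp1 also followed Tgfbr3 (r = 0.665) and Tgfb1 (r = 0.647).

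The gene outside the members that varied most like each was sought among 13900 genes in posterior eye and 12932 in retina with a mean of at least 2 CPM. In the posterior eye, Tgfbi was closest to C1r, a complement protease (r = 0.956), Tgfb3 to Pcolce, an enhancer of collagen processing (r = 0.95), Tgfbr2 to Igfbp5 (r = 0.921) and Tgfb1 to Ctdsp1 (r = 0.921). Ltbp1 was closest to Sned1 (r = 0.894), Tgfbr3 to Plscr4 (r = 0.882), Smad3 to Dag1 (r = 0.842) and Smad7 to Cd48 (r = 0.82). Tgfb2 was closest to the adhesion gene Nectin3 (r = 0.907) and Tgfbr1 to Dock9 (r = 0.91). In the retina, Ltbp1 was closest to Olfml2a (r = 0.926), followed by its own relative Ltbp2 (r = 0.925) and the basement membrane collagen Col18a1 (r = 0.921). Retinal Tgfb2 was closest to Angptl2 (r = 0.854), Tgfb1 to Ass1 (r = 0.866), Tgfbr1 to Klhdc10 (r = 0.911) and Tgfbr3 to Rhobtb2 (r = 0.796). The best match was weaker for Smad7 with Tmem39a (r = 0.775), Tgfbr2 with Cep44 (r = 0.762), Smad3 with Socs4 (r = 0.761), Tgfbi with Cep131 (r = 0.72) and Tgfb3 with Golph3l (r = 0.693).

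Marker levels of the posterior eye libraries moved with several members. Of 120 relations between the 10 members and 12 marker lists, each over 24 libraries with group means removed, the closest was Tgfb3 with the fibroblast level (r = 0.82, permutation p = 1e-05, the smallest that 100000 resamples give, adjusted p = 0.0012, rho = 0.777, permutation p = 3e-05). Without the 2 libraries farthest in fibroblast level r was 0.792. Tgfbi was higher where the macrophage level was higher (r = 0.757, permutation p = 4e-05, adjusted p = 0.0024, rho = 0.706, permutation p = 0.00033, r without 2 libraries 0.643) and lay lower where the rod level was higher (r = -0.721, permutation p = 0.00058, adjusted p = 0.0087, rho = -0.794, permutation p = 4e-05, r without 2 libraries -0.713). Tgfbr3 had a like relation to the rod level (r = -0.742, permutation p = 0.00011, adjusted p = 0.0033, rho = -0.778, permutation p = 5e-05, r without 2 libraries -0.703). For Tgfb2 the rod relation was r = 0.39 (permutation p = 0.078, adjusted p = 0.18, rho = 0.413, permutation p = 0.067, r without 2 libraries 0.397), and its closest was the melanocyte level (r = 0.591, permutation p = 0.00083, adjusted p = 0.0091, rho = 0.661, permutation p = 0.00057, r without 2 libraries 0.569). In the retina the smallest adjusted p of the 120 relations was 0.46.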

How the data were processed

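Per the labels' protocols, total RNA was turned into full-length cDNA with a low-input SMART-Seq kit, made into Nextera XT libraries and read from both ends. No step that marks the strand is described, so an overlapping or antisense gene may share reads with its partner. The authors deposited raw read counts per gene, 1 table per tissue. The submitters' processing notes name STAR 2.7.3a, HTSeq, DESeq2 and Rnor 6.0. The sources used here give no annotation release or counting options, and 25 posterior eye gene names had turned into calendar dates. The kit has no molecular identifiers, so counts are reads rather than molecules.

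Tests used edgeR 4.0.16 (R 4.3.3) with filterByExpr, TMM scaling, 1 mean per group over 24 libraries, or 48 for both tissues, and the two-sided quasi-likelihood F test. P-values were adjusted by the Benjamini-Hochberg method over all 16401 genes in posterior eye, 15481 in retina and 17153 in both. Standard errors are approximate and were taken from the F statistic and the log2 fold change. The animal number pairs the tissues: the 2 libraries of an animal had a median correlation of deviations of 0.0456 (-0.0859 to 0.261), with 9 of 24 over 0.1. No 2 libraries held identical counts. Where labels do not tell separate handling, p-values measure the spread between animals.

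Marker levels were mean log2 CPM with a prior count of 2, compared by exact permutation over 924 splits, whose smallest p is 0.00216, and related to members by permuting within groups 100000 times. Alternatives were DESeq2 1.42.0, limma-voom (limma 3.58.1), RLE size factors, no filter, the compared groups alone, replicate blocks, marker levels as covariates and each library left out. The lens covariates and the omission of libraries high in sebaceous or muscle genes were added after the data were seen. The members, pathway lists and marker lists were chosen with earlier results of these data known. All members are named, with up to 6 called pathway genes per list, or at most 2 of smallest p where none was called, of which the text gives those for OVX and age with p under 0.05, a limit set after their values were seen, and for each member and tissue the gene most like it. Pathway genes called by another tool, Col1a1 by its group ranges, the further matches of Ltbp1 and the member pairs and marker relations described were picked after their values were seen. Scripts were tested on simulated data.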

Additional observations from a re-analysis of the deposited data

Results flagged for a closer look

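Of 80 groups of 6 libraries, 10 members in 8 groups, 4 held a library far from the others by Dixon's test, and chance flags about 5 in 100. All 4 were in the retina. Young sham animal 4 had 75.7 CPM of Ltbp1, where the other 5 libraries had 33.0 to 45.7 CPM. The same library had 141.3 CPM of Tgfb2, where the others had 108.2 to 118.5 CPM. Aged OVX animal 23 had 14.2 CPM of Tgfb3, where the others had 11.2 to 12.1 CPM. Aged OVX animal 19 had 1.04 CPM of Smad7, where the others had 1.92 to 2.41 CPM.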

How the results depend on the processing

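The count of members called stayed at 10 for posterior eye against retina and at 0 for the other comparisons under every alternative run, apart from aged against young sham retinas, where it was 1 (Tgfb1) with DESeq2 and ran from 0 to 1 when each library was left out in turn. No member's called value changed sign. With the animal number as a replicate block, 10 members were called between the tissues and 0 for the difference of the OVX effect. The number within a group is not stated to pair animals, and with it as a replicate block 0 members were called in the 12 comparisons within a tissue. Deviations of libraries with the same number had a median correlation of 0.383 in the posterior eye (-0.586 to 0.764) and 0.0284 in the retina (-0.274 to 0.277). Counts over all genes moved more: edgeR called 0 to 1 gene per posterior eye comparison and 1 to 11 per retina comparison, DESeq2 0 to 65 per posterior eye and 9 to 68 per retina comparison, and edgeR beside the pigment epithelium level 0 to 2 in the retina. Smad7, Tgfb1 and Tgfbi in the retina rest on 19 to 145 reads per library, which limits their precision. Of the single-gene values, 34 moved beyond 1 standard error, and the cause was not tested.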
